A study of Mus musculus with 8 samples.

Results

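The Hox genes encode homeodomain transcription factors and lie in 4 clusters, HoxA to HoxD. They were described here in cultured mouse primary myoblasts, dividing muscle precursors cultured from satellite cells. The members are the array rows annotated with a single gene symbol made of Hox, a cluster letter and a number, with the row of the highest mean kept where a gene had several. This found 37 genes of 19938 measured, 10 in HoxA and 9 in each of HoxB, HoxC and HoxD, and each had 1 row. Hoxb8 had no row of its own, and a row that it shares with Hoxb7 was not counted.

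RNA was measured on 8 Affymetrix MoGene 1.0 ST arrays, 4 labelled Runx1f/f and 4 labelled WT, numbered 1 to 4 within each label as biological replicates. All cells came from satellite cells of the gastrocnemius, a hindlimb muscle, of C57bl/6 mice aged 2 to 3 weeks, and were grown on Matrigel in proliferation medium with no further treatment named. Runx1f/f cells carry floxed alleles of the transcription factor gene Runx1 and are also called knockout in the labels. The labels name no Cre driver, do not say which part of Runx1 is removed, and do not say whether replicates are single animals or pools, so spreads are those between arrays and may in part be technical. Values are log2 intensities after RMA, so a difference of 1 is a doubling of signal.

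The columns do not behave as the labels describe them. Each of the 35399 rows gave the same average, within 7.5e-05, over Runx1f/f 1 and 2, over Runx1f/f 3 and 4, and over all arrays labelled WT. The values therefore hold no difference between the labels, and a test of these columns counts more independent values than they contain. The SDs over 8 arrays given below likewise hold no spread between these sets of columns. In every SD, n counts arrays and not independent values. Runx1, the targeted gene, read 9.35, 9.98, 9.89 and 9.44 on arrays Runx1f/f 1 to 4 and 9.15, 9.99, 10.27 and 9.25 on WT 1 to 4. It did not separate the labels, whereas replicates 2 and 3 of both labels stood above replicates 1 and 4. Uty, Kdm5d and Eif2s3y, which lie on the Y chromosome, averaged at most 3.52, below background. Of all genes, 52.6% were above the background defined below. Of 8 myoblast markers fixed for the check, among them Pax7, Myod1 and Des, 8 were above it. Of 6 fibroblast markers 2 were above it (Col1a1 and Col3a1, with Pdgfra and Dcn below). Col3a1 averaged 8.90, which ranked above 91.5% of all genes, and Col1a1 averaged 4.62. Of 5 leukocyte markers 1 was above background (Cd68), and of 4 endothelial and 3 Schwann and neural markers 0.

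Hox genes are arranged along each chromosome in the order in which they are used along the body axis, an arrangement called collinearity. Genes with low numbers act towards the head and those with high numbers towards the tail and the tip of the limb, and genes with the same number in different clusters (paralogues) share sequence and much of their function. In the limb bud, HoxA and HoxD genes of positions 9 to 13 pattern the segments from shoulder or hip to digits, and Hoxc10 and Hoxc11 mark the hindlimb. Hox proteins bind DNA together with TALE homeodomain cofactors of the Pbx, Meis and Pknox families, and Polycomb and Trithorax proteins keep the clusters silent or active after development.

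In these hindlimb cells the strongest Hox signal lay at positions 9 to 11 of HoxA and HoxC. Background was read from 1015 olfactory receptor genes, taken as rows with mostly little target. Some olfactory receptors are used in muscle cells, and the highest mean was 5.52, so the set is not free of signal. Its median level was 3.64 and its 95th percentile 4.22. Of the 37 Hox genes, 13 had a mean over the 8 arrays above 4.22, a share of 35.1%, against 52.6% of all genes. These 13 were 6 of 10 in HoxA, 0 of 9 in HoxB, 6 of 9 in HoxC and 1 of 9 in HoxD. By position they were 0 of 7 at positions 1 to 3, 7 of 14 at positions 4 to 8, 6 of 10 at positions 9 to 11 and 0 of 6 at positions 12 and 13. With the 99th percentile of the olfactory receptor genes as the limit, all 6 at positions 9 to 11 were still above it, but of the 7 at positions 4 to 8 only Hoxa7 was. The 6 at positions 9 to 11 are the complete HoxA and HoxC complement of those positions, and the 4 HoxB and HoxD genes of the same positions were all below. Rows for different genes respond differently to their targets, so each level is read against background and the order of levels is not an order of RNA amounts. Fewer cells that use a gene and less RNA per cell cannot be told apart in these bulk samples.

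**Figure D1:**
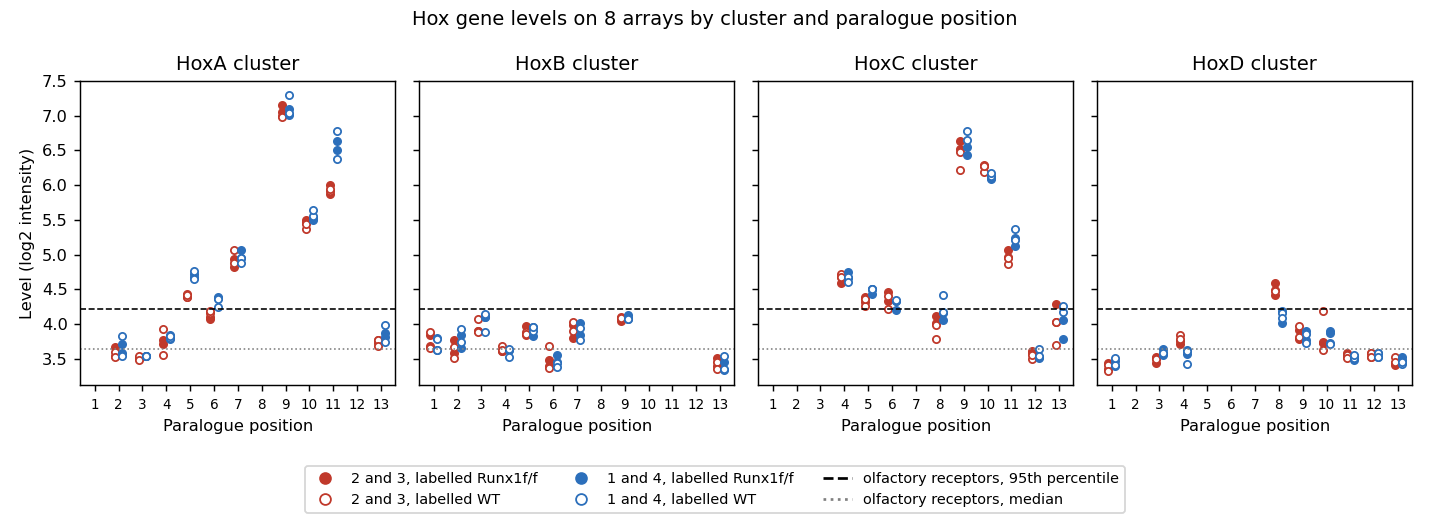
Level of each of the 37 Hox genes on the 8 arrays (vertical axis, log2 intensity) against paralogue position (horizontal axis), by cluster. Each point is 1 array, red for replicates 2 and 3 and blue for replicates 1 and 4, filled for Runx1f/f labels and open for WT labels; the dashed and dotted lines are the 95th percentile (4.22) and median (3.64) of olfactory receptor genes. HoxA and HoxC stand well above the dashed line at positions 9 to 11, while no HoxB mean is above it.

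At position 9, which acts in the posterior trunk and the base of the limb, Hoxa9 had the highest Hox signal. It read 7.05, 7.15, 6.99 and 6.98 on arrays Runx1f/f 2, Runx1f/f 3, WT 2 and WT 3, against 7.10, 7.00, 7.04 and 7.30 on Runx1f/f 1, Runx1f/f 4, WT 1 and WT 4. Its mean was 7.08 ± 0.11 (SD, n = 8), which ranked above 74.0% of all genes. Hoxc9 followed at 6.53 ± 0.16 (SD, n = 8). It read 6.63, 6.52, 6.22 and 6.48 on Runx1f/f 2, Runx1f/f 3, WT 2 and WT 3, against 6.43, 6.54, 6.65 and 6.78 on Runx1f/f 1, Runx1f/f 4, WT 1 and WT 4. The ranges of these 2 genes did not overlap, and Hoxa9 was above Hoxc9 on 8 of 8 arrays. Their paralogues Hoxb9 and Hoxd9 had means of 4.09 and 3.84, below the background level.

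Position 10 carries genes that pattern the thigh segment of the hindlimb and the lumbar spine. Hoxc10, a gene of the hindlimb and lumbar region, had a mean of 6.19 ± 0.08 (SD, n = 8). It read 6.27, 6.29, 6.19 and 6.27 on Runx1f/f 2, Runx1f/f 3, WT 2 and WT 3, against 6.11, 6.09, 6.14 and 6.17 on Runx1f/f 1, Runx1f/f 4, WT 1 and WT 4, a narrow band on all arrays. Hoxa10 had 5.50 ± 0.08, between 5.36 and 5.65, and Hoxd10 had 3.81 ± 0.18, below background, with its highest value, 4.18, on WT 2. The ranges of Hoxc10 and Hoxa10 did not overlap.

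Position 11 patterns the next limb segment, which in the hindlimb is the lower leg that holds the gastrocnemius. Hoxa11 had a mean of 6.25 ± 0.37 (SD, n = 8) and Hoxc11 of 5.10 ± 0.17, while Hoxd11 lay at 3.53 ± 0.03. In the order of levels, Hoxc9, Hoxa11 and Hoxc10 were not separated from one another: Hoxc9 was above Hoxa11 on 5 of 8 arrays and Hoxa11 above Hoxc10 on 4 of 8. Hoxa11 varied most among arrays of all the Hox genes, with an SD above that of 96.5% of all genes.

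Positions 12 and 13, which act at the end of the body axis and in the foot, gave no signal above background. Hoxa13, needed for digits, averaged 3.79 and Hoxd13 3.46, with all arrays of both between 3.40 and 3.99. Hoxc12 and Hoxd12 averaged 3.56 and 3.55, and Hoxb13, a gene of the tail end and of the prostate, averaged 3.42. Hoxc13, a hair follicle gene, averaged 4.04 ± 0.21 (SD, n = 8), with single arrays from 3.70 to 4.29. In HoxA, signal was thus above background at position 11 and within it at position 13, the next gene of that cluster.

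Positions 4 to 8 gave weaker signal, again in HoxA and HoxC. Hoxa7 averaged 4.94 ± 0.09, Hoxc4 4.67 ± 0.05, Hoxa5 4.56 ± 0.16, Hoxc5 4.41 ± 0.09, Hoxc6 4.33 ± 0.09 and Hoxa6 4.24 ± 0.13 (SD, n = 8 each). Hoxa7, which acts in the thoracic region, ranged from 4.83 to 5.07 and Hoxc4 from 4.59 to 4.75, so these 2 did not overlap, while Hoxa7 and Hoxc11 did. Hoxc6, a thoracic gene, read 4.33, 4.46, 4.41 and 4.22 on Runx1f/f 2, Runx1f/f 3, WT 2 and WT 3, against 4.33, 4.20, 4.34 and 4.34 on Runx1f/f 1, Runx1f/f 4, WT 1 and WT 4, so some arrays lay at the background limit. Hoxa6 was the member just inside the background limit, with Hoxc8 (4.09) and Hoxb9 (4.09) just outside it. In HoxD, Hoxd8 alone was above, at 4.30 ± 0.21, and Hoxd4 averaged 3.66. The 4 HoxB genes of these positions with their own rows, Hoxb4, Hoxb5, Hoxb6 and Hoxb7, averaged 3.47 to 3.91, and the shared row of Hoxb8 and Hoxb7 averaged 3.66. At positions 1 to 3, which pattern the hindbrain and neck, the 7 measured genes averaged between 3.41 (Hoxd1) and 4.00 (Hoxb3). RefSeq models of 6 pairs of Hox genes overlap, among them Hoxa3 with Hoxa5, Hoxa3 with Hoxa6 and Hoxd3 with Hoxd4. Signal from stretches that such models share cannot be assigned to either gene.

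The comparison of the labels addressed whether Hox genes depend on Runx1, which these columns cannot answer. In limma, 0 of 37 Hox genes differed between arrays labelled Runx1f/f and WT at an adjusted p of 0.05, against 0% of all 19938 genes, and 0 had an unadjusted p under 0.05. The largest difference of a Hox gene was 7.5e-06, which is rounding. The equal means fix these counts in advance.

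Replicates 2 and 3 were set against replicates 1 and 4 of both labels as a description. The sets were proposed after results of these arrays were known, so no test is given. A gene counts as separated when its 4 values in one set all lie on the same side of the 4 in the other. Of the 37 Hox genes, 3 were separated with higher values on replicates 2 and 3 (8.11%), against 9.87% of all genes. With lower values there were 7 (18.9%), against 10.5% of all genes. Among the 13 Hox genes above background, 2 were separated upward, against 14.2% of all genes above background. Downward there were 6 of the 13, against 16% of all genes above background. When a difference beyond 1.5-fold was asked as well, 0 Hox genes were higher, against 2.16% of all genes, and 1, Hoxa11, was lower, against 0.727% of all genes. The median difference of the 37 genes was -0.02, and that of all genes -0.01. Within the Runx1f/f labels the equal column means make arrays 1 and 2, and likewise 3 and 4, mirror images around the mean, so these 4 values carry fewer independent measurements than 4.

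Hoxa11 had the widest difference of the family. It read 6.00 and 5.87 on Runx1f/f 2 and 3 and 5.91 and 5.94 on WT 2 and 3, against 6.51 and 6.64 on Runx1f/f 1 and 4 and 6.38 and 6.78 on WT 1 and 4. Replicates 2 and 3 lay close together and below every value of replicates 1 and 4. The means were 5.93 ± 0.06 and 6.58 ± 0.17 (SD, n = 4 arrays each), a difference of -0.65 on the log2 scale, or 1.57-fold lower signal on replicates 2 and 3. The difference was -0.64 within the Runx1f/f labels and -0.66 within the WT labels. Without WT 4 it was -0.58, just inside 1.5-fold, and 0 Hox genes then passed. In chick embryos Hoxa11 is used by muscle precursors that migrate into the limb bud. Its antisense neighbour Hoxa11os was not analysed here.

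**Figure D2:**
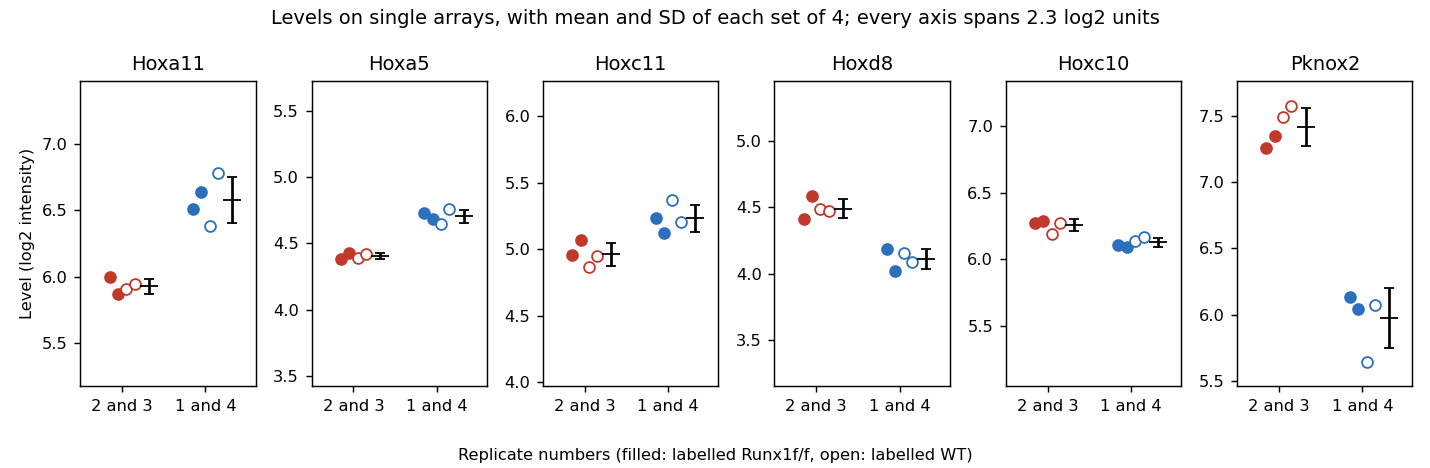
Level (vertical axis, log2 intensity) of 5 Hox genes and of the cofactor Pknox2 on single arrays of replicates 2 and 3 (red) and replicates 1 and 4 (blue), filled for Runx1f/f labels and open for WT labels, with the mean and SD of each set of 4. The sets do not overlap in any of the 6 genes, and every axis spans the same number of log2 units, so the gap of 0.65 in Hoxa11 can be compared by eye with 1.44 in Pknox2.

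The other separated genes differed by less. Hoxa5, used in the neck, thorax and lung, read 4.38, 4.43, 4.39 and 4.42 on Runx1f/f 2, Runx1f/f 3, WT 2 and WT 3, against 4.73, 4.68, 4.65 and 4.76 on Runx1f/f 1, Runx1f/f 4, WT 1 and WT 4. The 4 lower values spanned less than the gap to the higher ones, and the difference was -0.30. Hoxc11, the HoxC paralogue of Hoxa11, read 4.96, 5.07, 4.86 and 4.95 on replicates 2 and 3 in the same order, against 5.23, 5.12, 5.37 and 5.20 on replicates 1 and 4. Its sets came within a small step of each other, and the difference was -0.27. Within the Runx1f/f labels it was -0.16 and within the WT labels -0.38. Hoxa6, the neighbour of Hoxa5, read 4.10, 4.08, 4.16 and 4.18 on replicates 2 and 3 in that order, against 4.37, 4.39, 4.36 and 4.24 on replicates 1 and 4, which put the lower set below the background limit and the higher set above it. Its difference was -0.21, that of Hoxc5 -0.15, that of Hoxa10 -0.12 and that of Hoxd3, which lay below background, -0.10. In Hoxa10 the sets nearly touched, with 5.50 on both Runx1f/f 3 and Runx1f/f 4. In HoxA 10 of 10 members had a lower mean on replicates 2 and 3, from -0.02 in Hoxa3 to -0.65 in Hoxa11, against 52.8% of all genes. Among them Hoxa2, Hoxa3, Hoxa4 and Hoxa13 lay below background and overlapped between the sets. Separated with lower values were 4 of the 10, against 10.5% of all genes. The direction turned for Hoxa7 within the WT labels (0.06) and without Runx1f/f 3 or 4 (0.0033 each), and for Hoxa9 within the Runx1f/f labels (0.05). Of the 4 separated HoxA genes, Hoxa6 and Hoxa10 differed more in one label than in the other. Hoxa6 differed by -0.29 within Runx1f/f and -0.13 within WT labels, and Hoxa10 by -0.04 and -0.20.

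Higher on replicates 2 and 3 were Hoxd8, Hoxd4 and Hoxc10. Hoxd8 read 4.41, 4.58, 4.49 and 4.47 on Runx1f/f 2, Runx1f/f 3, WT 2 and WT 3, against 4.19, 4.02, 4.16 and 4.09 on Runx1f/f 1, Runx1f/f 4, WT 1 and WT 4. It was above the background limit on the arrays of replicates 2 and 3 and below it on the others, with a difference of 0.38. Hoxd4, the next Hox gene towards the 3′ end, differed by 0.21 at a level below background. Hoxc10 differed by 0.13, with means of 6.26 ± 0.05 on replicates 2 and 3 and 6.13 ± 0.03 on replicates 1 and 4 (SD, n = 4 arrays each). Its difference was 0.18 within the Runx1f/f labels and 0.08 within the WT labels. The adjacent genes Hoxc11 and Hoxc10 thus lay on opposite sides of 0. Hoxa9 and Hoxc9, the brightest rows, overlapped between the sets, with differences of -0.07 and -0.14. Hoxc9 differed by 0.09 within the Runx1f/f labels and by -0.36 within the WT labels.

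**Figure D3:**
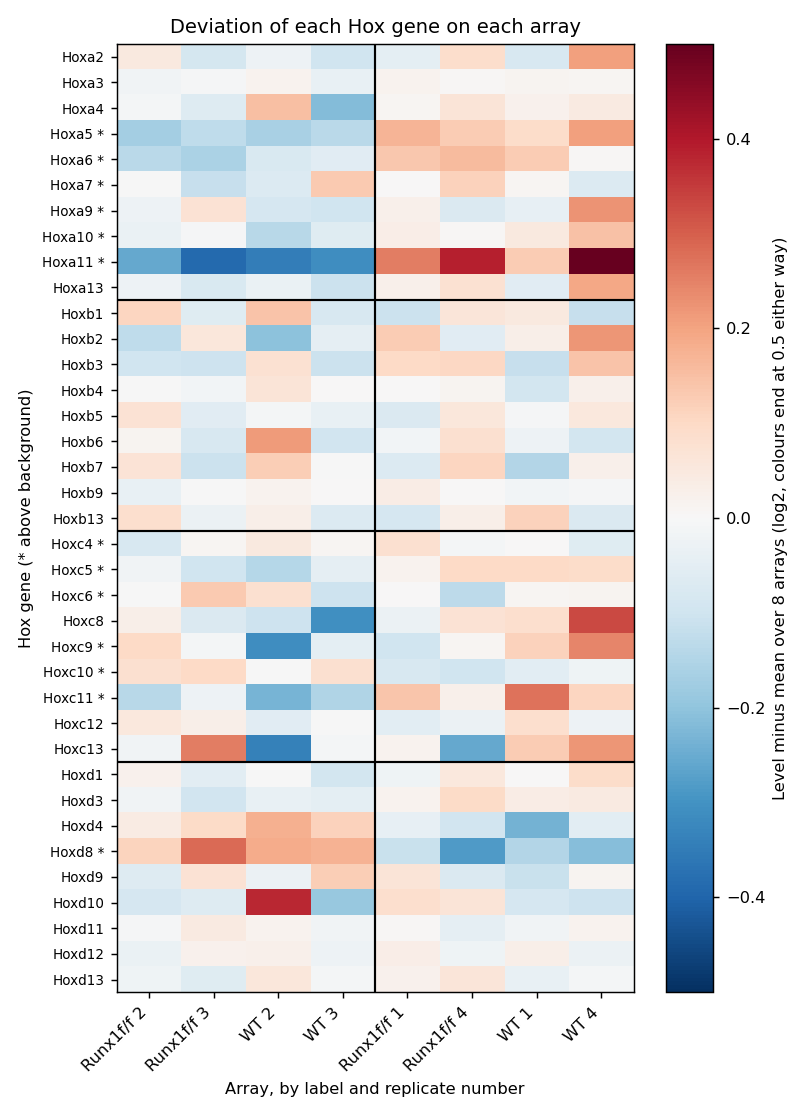
Deviation of each Hox gene on each array from its own mean over the 8 arrays (colour, log2), with arrays in columns (replicates 2 and 3 left of the vertical line, replicates 1 and 4 right) and genes in rows by cluster and position; an asterisk marks the 13 genes above background. Hoxa11 and Hoxa5 are blue on the left and red on the right, Hoxd8 is the reverse, and Hoxb9, Hoxd11 and Hoxd12 are pale throughout.

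Of the 8 myoblast markers, 3 were separated upward and 3 downward between these sets of arrays, against 9.87% and 10.5% of all genes. Pax7 and Itga7 overlapped. The mean level of the 8 markers was 10.13 to 10.17 on replicates 2 and 3 and 10.12 to 10.18 on replicates 1 and 4. The 2 that passed 1.5-fold lay on opposite sides, where 2.16% of all genes passed upward and 0.727% downward. Myog, which drives terminal differentiation, averaged 11.72 ± 0.19 on replicates 2 and 3 and 10.96 ± 0.21 on replicates 1 and 4, and Myf5, an early muscle determination factor, 7.66 ± 0.17 and 8.55 ± 0.18 (SD, n = 4 arrays each). Their part in the Hox differences was not tested. Over the fibroblast markers the mean level was 4.65 to 4.75 on replicates 2 and 3 and 4.53 to 4.68 on replicates 1 and 4, and over the leukocyte markers 3.71 to 3.78 and 3.63 to 3.70. The endothelial markers lay lower, at 3.475 to 3.505 on replicates 2 and 3 and 3.507 to 3.539 on replicates 1 and 4. Among them Pecam1 was separated downward (-0.19) and Kdr upward (0.06). The Schwann and neural markers, at 3.30 to 3.45 and 3.45 to 3.68, overlapped slightly, and both lists were below background. Separated upward were 1 fibroblast, 2 leukocyte, 1 endothelial and 0 Schwann and neural markers, against 9.87% of all genes. Downward there were 0, 0, 1 and 1 in the same order, against 10.5%. The part of these lists was not tested either.

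The sequences upstream of the genes with the widest differences in each direction were read from RefSeq promoters (GRCm38.p6), which run from 250 bases before to 50 after a gene's start. Of the 37 Hox genes 21 matched, with 23 promoters. Searched on both strands were the Runx core TGTGGT, the E-box CAGCTG that MyoD can bind, the AP-1 site TGACTCA of c-Jun and the Pbx-Hox site TGATNNAT. The first 3 were searched because the series is about Runx1, MyoD and c-Jun, and capitals mark every match to the 4 motifs.

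Hoxa11 (chr6:52245761-52246060, minus strand): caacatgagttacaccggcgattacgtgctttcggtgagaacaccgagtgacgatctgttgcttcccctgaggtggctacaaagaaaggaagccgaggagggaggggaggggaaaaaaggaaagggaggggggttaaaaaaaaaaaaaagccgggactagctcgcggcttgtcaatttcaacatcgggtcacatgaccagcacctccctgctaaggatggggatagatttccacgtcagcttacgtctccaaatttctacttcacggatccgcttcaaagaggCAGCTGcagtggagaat

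Hoxd8 (chr2:74704365-74704664, plus strand): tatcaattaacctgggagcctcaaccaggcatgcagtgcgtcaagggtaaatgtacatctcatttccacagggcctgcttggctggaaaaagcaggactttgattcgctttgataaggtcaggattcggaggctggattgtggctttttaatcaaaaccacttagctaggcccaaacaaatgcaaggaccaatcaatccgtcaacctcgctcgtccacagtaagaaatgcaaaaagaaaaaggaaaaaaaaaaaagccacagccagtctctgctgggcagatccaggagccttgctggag

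Hoxa11 held 1 match, an E-box, and Hoxd8 held 0. Over the Hox promoters the E-box was in 4 of 23 (Hoxa3, Hoxa5, Hoxa6 and Hoxa11), against 16.3% of 32851 RefSeq promoters. The Runx core was in 1 of 23 (Hoxd10), against 16.8%, the AP-1 site in 1 of 23 (Hoxd11), against 5.2%, and the Pbx-Hox site in 3 of 23 (Hoxa2, Hoxb1 and Hoxd11), against 8.85%. The median number of CpG dinucleotides was 15 in the Hox promoters and 7 in all promoters. A match is a description of letters and not a measured binding site.

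Noncoding genes inside the clusters gave no signal above background. Of 16 listed, 9 were measured, with means from 3.30 to 4.10. Hotair was not among the 9, and 0 of the 9 were above 4.22, against 52.6% of all genes. Among them are the miRNA genes Mir10a and Mir10b, beside Hoxb4 and Hoxd4, and Mir196a-1, Mir196a-2 and Mir196b, which lie 5′ of the position 9 genes of HoxB, HoxC and HoxA. The array rows are annotated with the miRNA genes, and the mature miRNAs were not measured separately. The sequences are shown because these miRNAs form 2 families with shared seeds across clusters. The seed, bases 2 to 8, is in capitals. By RefSeq (GRCm38.p6), miR-10a-5p lies at chr11:96317186-96317208 and miR-10b-5p at chr2:74726074-74726096, both on the plus strand. miR-196a-5p lies at chr11:96265187-96265208 and chr15:102973365-102973386, plus strand, and miR-196b-5p at chr6:52230129-52230150, minus strand.

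mmu-miR-10a-5p: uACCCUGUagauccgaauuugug

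mmu-miR-10b-5p: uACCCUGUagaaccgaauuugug

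mmu-miR-196a-5p: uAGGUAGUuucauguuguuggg

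mmu-miR-196b-5p: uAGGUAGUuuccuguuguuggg

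Mir10a, with the highest mean of the 9, averaged 4.10 ± 0.07, and the HoxA antisense RNA gene Hoxaas2 3.98 ± 0.20 (SD, n = 8 each). Hottip, a noncoding gene at the 5′ end of HoxA, averaged 3.30. For the miRNA genes, all values on all arrays lay between 3.35 and 4.23.

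Of the cofactors of Hox proteins, 7 of 8 measured TALE genes were above background, against 52.6% of all genes. Pknox2, a TALE homeodomain gene also called Prep2, was the only one of the 8 with a difference past 1.5-fold, which 2.16% of all genes passed upward. It read 7.26, 7.35, 7.49 and 7.58 on Runx1f/f 2, Runx1f/f 3, WT 2 and WT 3, against 6.14, 6.05, 5.65 and 6.08 on Runx1f/f 1, Runx1f/f 4, WT 1 and WT 4. The sets stood more than 1 apart on the log2 scale, with means of 7.42 ± 0.14 and 5.98 ± 0.22 (SD, n = 4 arrays each) and a difference of 1.44. Its relative Pknox1 averaged 6.35 ± 0.05 (SD, n = 8) and overlapped between the sets. Pbx2 was higher on replicates 2 and 3 by 0.52, and Meis1 and Meis3 differed by -0.33 and -0.16, so of 8 cofactors 2 were separated upward and 2 downward, against 9.87% and 10.5% of all genes.

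**Figure D4:**
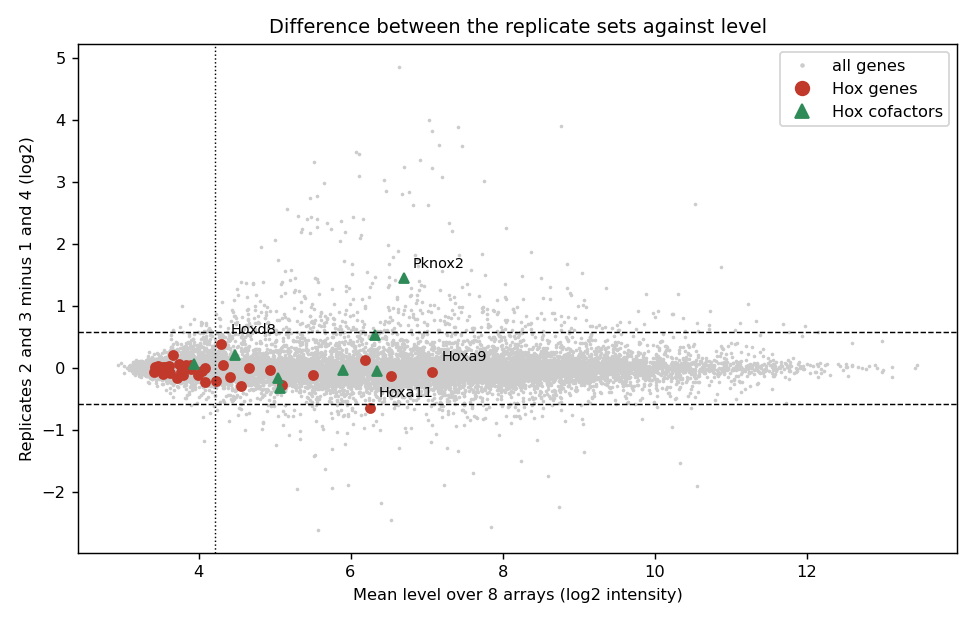
Difference between replicates 2 and 3 and replicates 1 and 4 (vertical axis, log2) against the mean level over 8 arrays (horizontal axis, log2 intensity) for all 19938 genes (grey), the 37 Hox genes (red circles) and 8 Hox cofactors (green triangles). Dashed lines mark 1.5-fold and the dotted line the background limit of 4.22. Hoxa11 is the Hox gene beyond a dashed line, at -0.65, and Pknox2 is at 1.44.

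Of 20 measured limb and axial position factors, 4 were above background, against 52.6% of all genes, and 0 passed 1.5-fold between the sets, against 2.16% upward and 0.727% downward of all genes. Lbx1, which guides muscle precursors into the limb, averaged 5.84 ± 0.09, and Tbx4, the T-box gene of the hindlimb, 5.20 ± 0.19 (SD, n = 8 each). Tbx5, its forelimb counterpart, averaged 3.36, below background. Pitx1, a homeodomain gene that specifies the hindlimb, averaged 3.41, also below background, with all arrays between 3.32 and 3.49. Of these hindlimb genes, Tbx4, Hoxc10 and Hoxc11 were thus above background and Pitx1 was not. Isl1, from the same list of position factors, averaged 3.67, also below background. Between the sets 1 member of the list was separated upward and 2 downward, against 9.87% and 10.5% of all genes. The Cdx and Evx genes, which flank or act before the Hox clusters in the embryo, averaged 3.33 to 3.99.

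The listed chromatin regulators that hold Hox clusters silent or active were above background in 16 of 16 Polycomb and 10 of 10 Trithorax genes measured, against 52.6% of all genes. Of 16 Polycomb genes 0 passed 1.5-fold, with 2 separated upward and 2 downward on replicates 2 and 3, near the 9.87% and 10.5% of all genes. Rbbp7 and Rbbp4, histone-binding subunits of several complexes, averaged 11.08 ± 0.07 and 10.54 ± 0.16. Of 10 Trithorax and demethylase genes 0 passed 1.5-fold, with 2 separated upward and 1 downward, against 9.87% and 10.5% of all genes. Past 1.5-fold were 2.16% of all genes upward and 0.727% downward, so 0 in lists of 16 and 10 genes lies near those shares. Ash2l and Dpy30, subunits of the MLL-type methyltransferases, averaged 9.14 ± 0.05 and 8.88 ± 0.08 (SD, n = 8 each).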

How the data were processed

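RNA of 8 arrays, 200 ng of total RNA each, was analysed. The authors deposited log2 intensities. Per the submitters' processing notes RMA and Partek were used, with no version given. No label records the step that made the column means equal. Array medians were 4.39 to 4.41. Precision is limited by the 8 arrays.

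Columns were assigned by the accession in the header. Platform annotation gave 21789 of 35399 rows 1 symbol, and 1621 rows with several symbols were not used. All 37 Hox identifiers matched the RefSeq table (GRCm38.p6). For the labels, limma (version 3.58.1, R 4.3.3) was run over all 19938 genes (two-sided, Benjamini-Hochberg). The fit was tested on simulated data with independent columns, so that test does not cover columns with equal means. Deviations of same-numbered arrays correlated by 0.39, 0.46, 0.60 and 0.57 for numbers 1 to 4. The number therefore served as a block in an alternative fit, although the labels state no pairing. Source numbers were 139, 142, 160 and 189 for WT 1 to 4 and 140, 141, 161 and 181 for Runx1f/f 1 to 4. Alternatives were other scalings, thresholds, backgrounds and each array left out. Members and lists were chosen with earlier results of these data known. From each list, members past 1.5-fold were named, or else the 2 with the highest mean. Pbx2, Meis1, Meis3, Pknox1, Tbx5, Pitx1, Isl1, Cdx and Evx genes, Hottip, Mir10b and the Mir196 genes were named after their values were seen.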

Additional observations from a re-analysis of the deposited data

Results flagged for a closer look

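Among 74 groups of 4 arrays, 37 Hox genes in each label, 1 held an outlying array. Hoxa3 read 3.48 on WT 3, the lowest of the 4 WT arrays, where the others lay between 3.53 and 3.54, all below background. Chance marks about 1 in 20 groups of independent values, and the mirrored Runx1f/f columns cannot be marked.

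Hoxb9 moved in opposite directions between replicates 2 and 3 and replicates 1 and 4 in the 2 labels, by -0.0381 within the Runx1f/f labels and by 0.02 within the WT labels. Both values are small, the gene was below background, and the difference was not tested. Hoxb9 stands here because its sets did not overlap within either label. Wider opposite differences, such as 0.24 within Runx1f/f and -0.35 within WT labels in Hoxc13 and -0.15 and 0.19 in Hoxd10, came with overlap within 1 label.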

How the results depend on the processing

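With the replicate number as a block, 0 Hox genes differed between the labels, and the block changed no other call; the count was also 0 under the other scalings, filters and rows run and with each array left out (0 to 0), as the equal means fix for fits of all columns. The counts between the replicate sets, 0 higher and 1 lower, became 1 and 3 at 1.2-fold and 0 and 0 at 2-fold. With no minimum fold, a setting chosen after seeing the data, they became 3 and 7. With 1 array left out, the count of lower genes ranged from 0 (without WT 4) to 1 and that of higher genes from 0 to 0. Hoxa11 kept its direction in all settings run, from -0.71 without WT 1 to -0.58 without WT 4. The count of 13 Hox genes above background became 7 with the 99th percentile of olfactory receptor genes and 26 with their median, and was 9 when each array had to pass, 10 with the median of all rows as the limit and 12 to 13 with 1 array left out. Of 481 recomputed differences of single Hox genes, 22 moved by more than the SD of a set, all of them within 1 label. Signal close to background limits what can be said of the 24 Hox genes not above it.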
